A study of Rattus norvegicus with 23 samples.

Results

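The genes described here are 10 that carry the early signals of inflammation in lung tissue: the chemokines Cxcl1, Cxcl2, Ccl2 and Ccl3, the cytokines Il1b, Il6 and Tnf, and the adhesion molecules Selp, Sele and Icam1. They were chosen by name, as the rows of the deposited table with these symbols, and all 10 were found among 19249 genes. RNA was sequenced from pieces of whole lung of male rats, each library from 1 rat, after 2 weeks in which the animals breathed filtered air (7 libraries), low eucalyptus smoke (8 libraries) or high eucalyptus smoke (7 libraries). The smoke groups were exposed on 4 days, rested for 3 days and were exposed on 3 more days, with a target of 10 ppm carbon monoxide for low and 20 ppm for high smoke. The labels give neither the strain and age of the rats nor the time from the last exposure to the collection of the lungs. The air group is the only control, and of 24 rats randomized, 8 to a group, 1 air sample and 1 high smoke sample were dropped for quality.

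As background, tissue injury and microbial products activate the transcription factor NF-κB in macrophages, epithelium and endothelium. NF-κB switches on the chemokine and cytokine genes within hours, and their messenger RNAs are short-lived. Interleukin 1 and tumour necrosis factor then act on the endothelium, which places P-selectin and E-selectin on its surface for rolling leukocytes and ICAM-1 for their firm adhesion. Chemokines of the CXC kind such as Cxcl1 and Cxcl2 draw in neutrophils, and chemokines of the CC kind such as Ccl2 and Ccl3 draw in monocytes and other leukocytes.

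The control regions of these genes are known for binding sites of NF-κB, and the stretches below show where the consensus kappa B motif lies just before the start of 3 of them. The RefSeq table of promoters used here, in build GRCr8, held 7 of the 10 genes. Ccl2, Ccl3 and Selp had no entry. Each window spans 250 bases before to 50 after the gene start, and was searched on both strands. The kappa B motif was in 3 of the 7 windows, those of Cxcl1, Cxcl2 and Il6, and in 4.18% of all 33469 windows of that length. Its first base on the gene's strand lay 84 bases before the start of Cxcl1, 74 before that of Cxcl2 and 68 before that of Il6. The motif reads nearly the same on both strands, so matches overlap in Cxcl1 and Cxcl2. The letters TATAAA were in 3 other windows, those of Il1b, Tnf and Icam1, and in 14.2% of all windows, while TGANTCA, the motif of AP-1, was in 0 of 7 and in 7.33% of all windows. The 120 bases before the start are printed 5′ to 3′ on the gene's strand, with the bases of kappa B matches in capitals.
Cxcl1 (chr14:17479322-17479441, minus strand): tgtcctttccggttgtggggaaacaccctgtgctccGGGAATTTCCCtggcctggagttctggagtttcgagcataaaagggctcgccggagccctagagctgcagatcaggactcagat
Cxcl2 (chr14:17467256-17467375, minus strand): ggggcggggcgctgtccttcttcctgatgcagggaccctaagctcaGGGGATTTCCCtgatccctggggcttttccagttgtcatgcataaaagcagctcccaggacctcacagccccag
Il6 (chr4:5894576-5894695, minus strand in this build): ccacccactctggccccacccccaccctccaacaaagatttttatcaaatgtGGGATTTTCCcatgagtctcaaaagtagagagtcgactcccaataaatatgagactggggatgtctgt

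Values are normalized counts, that is, reads of a gene divided by a size factor of its library. Depth was 8484131 to 12055512 read equivalents per library, and a single read was worth 0.795 to 1.204 normalized counts. The test took in every gene whose average across libraries reached 10, which came to 14414 genes, 8 of the 10 members among them. Il6 (mean 0.728) and Tnf (mean 7.35) were below that level. The test was limma's on log2(value + 1) with 1 fit for the 3 groups, and a gene is said to have risen or fallen where its p adjusted over all 14414 genes was below 0.05. In air replicate 3 the second principal component of all tested genes was 44.6, against at most 16.0 in any other library. High smoke replicates 1, 3 and 7 scored 36.5 to 51.5 on the first component, against 8.77 at most elsewhere. Values without these libraries are given beside the members' results where they differ by over 1.5 times.

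Across the 3 comparisons, 0 of the 8 tested members passed the test. Against air, the differences ran from -0.36 to 0.31 on the log2 scale in high smoke (adjusted p from 0.306 to 0.980) and from -0.83 to -0.017 in low smoke (adjusted p from 0.769 to 0.985). High smoke against low smoke gave 0.022 to 0.56 (adjusted p from 0.0792 to 0.906). Over all genes the same limma test called 16.3% in high smoke against air (9.21% higher, 7.05% lower), 0% in low smoke against air (0% higher, 0% lower) and 6.78% in high against low smoke (3.8% higher, 2.98% lower). With every library scaled to the same total, the calls in high smoke against air became 894 higher and 1797 lower in place of 1327 and 1016, and those in high against low smoke 414 and 633 in place of 548 and 429. At an unadjusted p below 0.05 there were 0 members in high smoke against air (30.7% of all genes), 1 in low smoke against air, Cxcl2 (6.4%), and 1 between the smoke groups, Ccl3 (25.6%). By the exact rank-sum test 0 members were called in any comparison. That test called fewer of all genes than limma in both comparisons of high smoke, with the counts given in the last section. The groups overlapped for all 10 genes in each comparison, while 1.87% of all tested genes did not overlap between high smoke and air, 0.0416% between low smoke and air and 0.694% between the smoke groups. In a piece of whole lung, fewer cells of a type and less RNA per cell cannot be told apart.

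**Figure D1:**
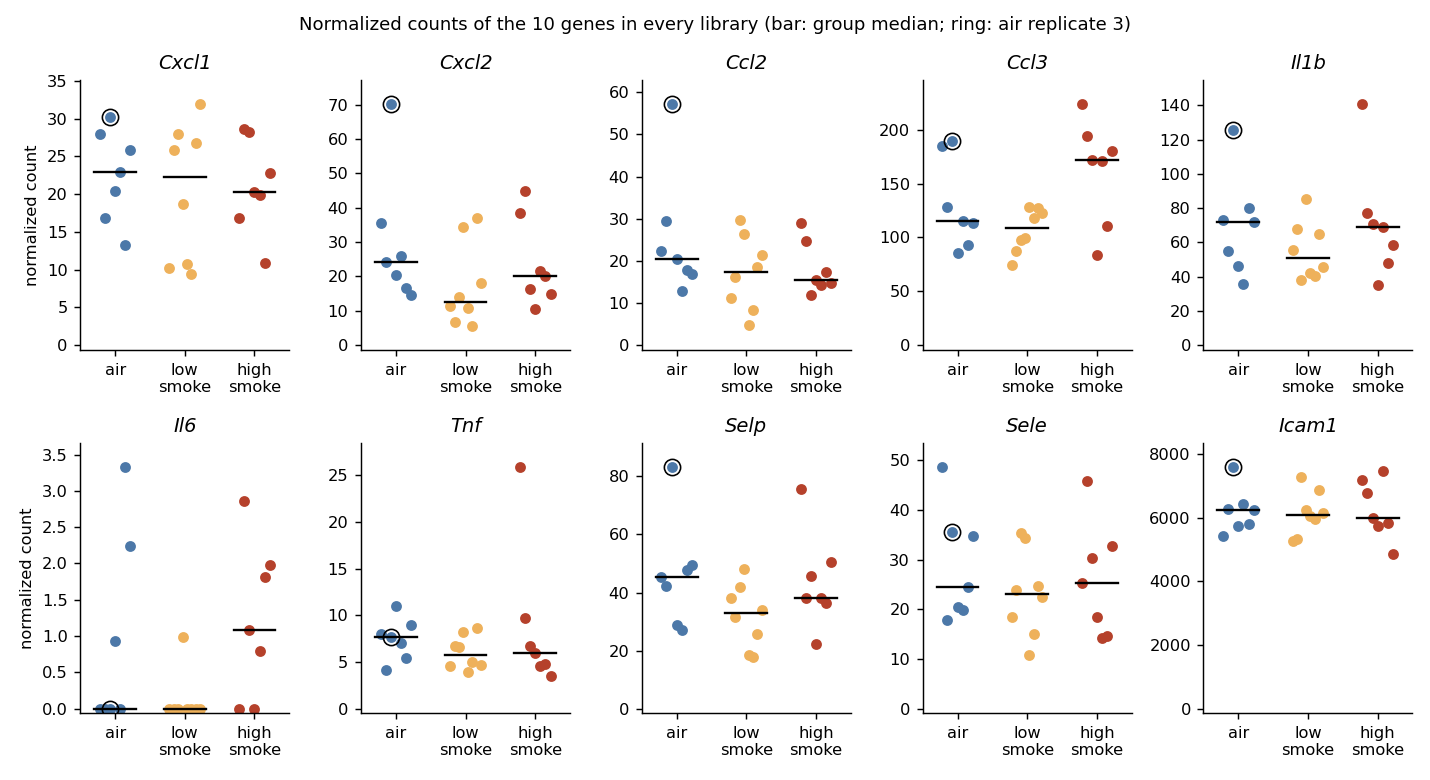
Normalized counts (vertical axes, linear) of the 10 genes in each of the 22 libraries, by group; each point is 1 rat, bars are group medians and rings mark air replicate 3. The groups overlap in every panel, and air replicate 3 holds the highest value of Cxcl2, Ccl2, Selp and Icam1.

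Cxcl1 encodes a ligand of the neutrophil receptor Cxcr2 and lies on chromosome 14 of build rn6 (18743685 to 18745458, minus strand, protein-coding). Its lowest, median and highest normalized counts were 13.3, 22.9 and 30.2 in air, 9.38, 22.2 and 32.0 in low smoke and 10.9, 20.3 and 28.6 in high smoke. The 3 lowest libraries of all were low smoke replicates 1, 5 and 6, and the other 5 low smoke libraries lay between 18.6 and 32.0. Low smoke stood at -0.24 against air (SE 0.27, limma adjusted p = 0.918) and high smoke at -0.10 (SE 0.28, limma adjusted p = 0.844). High against low smoke gave 0.14 (SE 0.27, limma adjusted p = 0.788). The high smoke difference from air was -0.024 with air replicate 3 left out and -0.19 with high smoke replicates 1, 3 and 7 left out, that from low smoke became 0.047 without these 3, and the low smoke difference was -0.16 without air replicate 3. The unadjusted 95% interval of the high smoke difference ran from 0.627 to 1.39-fold, so changes within that range remain compatible with these values. These values rest on 10 to 34 reads per library, and in air their variance was 1.63 times that of read counting alone.

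Cxcl2, a second Cxcr2 ligand, lies 10293 bases from Cxcl1 on the same strand (chromosome 14, 18731378 to 18733392). It was 14.6, 24.2 and 70.2 in air (lowest, median, highest), 5.63, 12.6 and 37.1 in low smoke and 10.7, 20.0 and 44.8 in high smoke. In low smoke 5 of 8 rats were below every air rat, while replicates 4 and 7 stood at 34.3 and 37.1, near the second highest air rat (replicate 1, 35.4). The low smoke difference of -0.83 had an SE of 0.38 and an interval from 0.327 to 0.971-fold (limma adjusted p = 0.769), and became -0.59 (adjusted p = 0.859) without air replicate 3. High smoke stood at -0.27 against air (SE 0.39, limma adjusted p = 0.675), and at -0.041 without air replicate 3 (adjusted p = 0.952). Against low smoke it stood at 0.55 (SE 0.38, limma adjusted p = 0.377). Cxcl2 had the widest spread between rats of the 8 tested members, with 6 to 65 reads per library and a variance of 6.91 to 12.2 times that of counting in the 3 groups.

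Ccl2 encodes the ligand of Ccr2 that recruits monocytes (chromosome 10, 69412017 to 69413871, plus strand). It was 13.0, 20.4 and 57.3 in air, 4.87, 17.4 and 29.8 in low smoke and 11.9, 15.5 and 28.9 in high smoke. A single air library, replicate 3, stood far above all others, and 5 of 7 high smoke and 5 of 8 low smoke libraries were under the air median. The difference from air was -0.56 in low smoke (SE 0.32, limma adjusted p = 0.811) and -0.36 in high smoke (SE 0.34, limma adjusted p = 0.502). Without air replicate 3 it was -0.34 and -0.14 (adjusted p = 0.909 and 0.801).

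Ccl3 encodes a ligand of Ccr1 made by macrophages and other leukocytes (chromosome 10, 70869513 to 70871067, minus strand). It was 85.9, 115.6 and 189.6 in air, 74.4, 108.7 and 128.5 in low smoke and 84.0, 171.6 and 224.0 in high smoke. In high smoke 5 of 7 rats were above every low smoke rat, and the other two, replicates 4 and 6, stood at 84.0 and 111. High against low smoke gave 0.56 (1.47-fold, SE 0.19, interval 1.11 to 1.94-fold, limma adjusted p = 0.0792), which was short of the threshold. This is the 1 member whose call depended on a single library. It passed without replicate 4 of high smoke (0.70, adjusted p = 0.017) or without replicate 6 (0.63, adjusted p = 0.0423), and stood at 0.33 without replicates 1, 3 and 7 (adjusted p = 0.816). High smoke stood at 0.31 against air (SE 0.20, limma adjusted p = 0.306) and low smoke at -0.25 (SE 0.19, limma adjusted p = 0.876), with air replicates 1 and 3, at 185 and 189.6, as high as the upper high smoke rats. The former was 0.088 without high smoke replicates 1, 3 and 7 (adjusted p = 0.908), and the latter -0.15 without air replicate 3 or without air replicate 1. The deposited values of Ccl3 were fractions of reads in 22 of 22 libraries, and the counting rule behind them is not given in the sources used here.

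**Figure D2:**
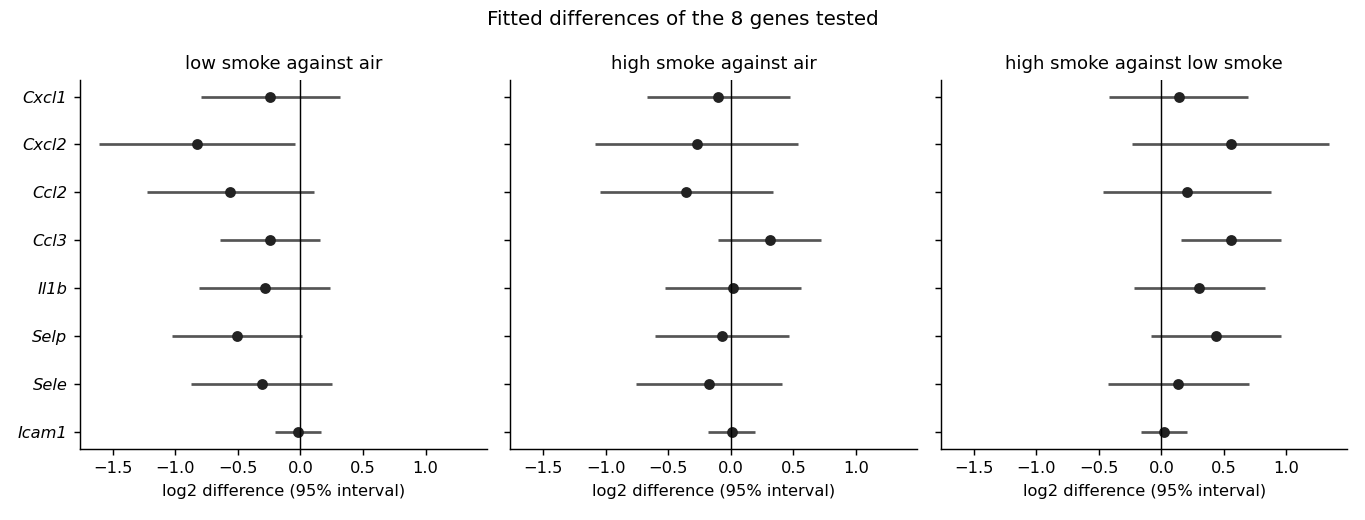
Fitted log2 differences (horizontal axes, points) with unadjusted 95% intervals (lines) for the 8 tested genes in the 3 comparisons. All 8 points are below 0 in low smoke against air and above 0 in high against low smoke, which share the low smoke libraries, and the intervals of Icam1 are the narrowest.

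Il1b, the cytokine released by inflammasome activity in macrophages and neutrophils, lies on chromosome 3 (121876263 to 121882727, minus strand). It was 35.9, 71.8 and 125 in air, 38.1, 50.6 and 85.3 in low smoke and 34.9, 69.2 and 141 in high smoke. The 2 highest rats of all were high smoke replicate 1 and air replicate 3, and 7 of 8 low smoke rats were under the air median. Low smoke stood at -0.29 against air (SE 0.25, limma adjusted p = 0.883), and high smoke at 0.017 (SE 0.26, interval 0.696 to 1.47-fold, limma adjusted p = 0.976). High against low smoke gave 0.30 (SE 0.25, limma adjusted p = 0.477). Without high smoke replicates 1, 3 and 7 high smoke stood at -0.24 against air (adjusted p = 0.760) and at 0.049 against low smoke (adjusted p = 0.985), and without high smoke replicate 1 alone at -0.16 and 0.12. Without air replicate 3 low smoke stood at -0.13 and high smoke at 0.17 against air.

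Tnf, the gene of tumour necrosis factor (chromosome 20, 4855829 to 4858448, plus strand), was near the limit of detection. It was 4.19, 7.64 and 11.0 in air, 3.875, 5.78 and 8.67 in low smoke and 3.50, 5.995 and 25.9 in high smoke. High smoke replicate 1 held the value of 25.9, and the other 6 high smoke rats lay between 3.50 and 9.70, within or just under the air range. These are fractional reads in 22 of 22 libraries and rest on 3.54 to 21.5 read equivalents. In a limma fit with a level filter of 5 in place of 10, high smoke against air gave -0.019 (adjusted p = 0.980), low smoke against air -0.26 (adjusted p = 0.931) and high against low smoke 0.24 (adjusted p = 0.684).

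Il6, which encodes the cytokine that drives the acute phase response of the liver (chromosome 4, 3043231 to 3047808, plus strand), was at 0 to 3 reads in every library. It was listed at 0 in 4 of 7 air, 7 of 8 low smoke and 2 of 7 high smoke libraries, and summed to 6, 1 and 9 reads in these groups. A count of 0 reads allows up to 3 reads, which was 2.38 to 3.61 normalized counts depending on the library, for counting error only. No fold is given, since the value of every single library was at or under that limit. In high smoke 4 of 7 rats were above every low smoke rat in normalized counts, with 1 to 3 reads each. The highest low smoke rat, replicate 4, had 1 read (0.981), and 1 of these 4, high smoke replicate 3, also had 1 read (1.08). In a limma fit without a level filter its adjusted p was 0.673 in high smoke against air and 0.866 in low smoke against air. In high against low smoke it was 0.176 (unadjusted p = 0.028).

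Selp encodes P-selectin, which endothelium and platelets store and move to their surface (chromosome 13, 82429063 to 82464629, plus strand). It was 26.9, 45.3 and 83.2 in air, 17.8, 32.8 and 48.1 in low smoke and 22.3, 38.2 and 75.8 in high smoke. Air replicate 3 and high smoke replicate 1 were the 2 highest rats, and 7 of 8 low smoke rats were under the air median. Low smoke stood at -0.51 against air (SE 0.25, interval 0.492 to 1.01-fold, limma adjusted p = 0.771) and at -0.35 without air replicate 3 (adjusted p = 0.864). High smoke stood at -0.068 against air (SE 0.26, limma adjusted p = 0.891; 0.086 without air replicate 3) and at 0.44 against low smoke (SE 0.25, limma adjusted p = 0.280). Leaving out high smoke replicates 1, 3 and 7, these were -0.39 and 0.12 (adjusted p = 0.594 and 0.958), and without high smoke replicate 1 alone -0.21 and 0.29.

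Sele encodes E-selectin, which endothelium makes after cytokine stimulation, and lies 63721 bases from Selp on the same strand (chromosome 13, 82355471 to 82365342). It was 17.9, 24.4 and 48.6 in air, 10.7, 23.1 and 35.4 in low smoke and 14.3, 25.3 and 45.8 in high smoke. The highest rats were air replicate 1 and high smoke replicate 2, and the lowest was a low smoke rat, replicate 5. The differences were -0.31 in low smoke (SE 0.27, limma adjusted p = 0.884), -0.17 in high smoke (SE 0.28, limma adjusted p = 0.716) and 0.14 in high against low smoke (SE 0.27, limma adjusted p = 0.798). Without high smoke replicates 1, 3 and 7 high smoke stood at -0.38 against air and -0.073 against low smoke, and without replicate 2 of high smoke at -0.33 and -0.015. Without air replicate 1 low smoke stood at -0.17 and high smoke at -0.038 against air, and without air replicate 3 high smoke stood at -0.11.

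Icam1, the ligand of leukocyte integrins that alveolar type 1 cells also carry, had 4924 to 9382 reads in every library (chromosome 8, 22035256 to 22047060, plus strand). It was 5430, 6251 and 7584 in air, 5276, 6097 and 7288 in low smoke and 4872, 5992 and 7458 in high smoke. The groups covered nearly the same range, and the lowest and the next to highest rat of all were both in high smoke. Against air, high smoke stood at 0.0049 on the log2 scale (SE 0.093, interval 0.879 to 1.15-fold, limma adjusted p = 0.980) and low smoke at -0.017 (SE 0.090, interval 0.869 to 1.12-fold, limma adjusted p = 0.985). It had the smallest SE of the 8 tested members. Without air replicate 3 these were 0.054 and 0.032, and without high smoke replicates 1, 3 and 7 high smoke stood at 0.053 against air and 0.070 against low smoke (0.022 with all libraries). The sign of its differences turned with the scaling and with single libraries.

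As a group, the 8 tested members had a median difference of -0.084 in high smoke against air, -0.30 in low smoke against air and 0.25 in high against low smoke, beside -0.0021, 0.0031 and 0.0011 over all genes tested. Below air were 5 of 8 members in high smoke, where 50.4% of all genes were, and 8 of 8 in low smoke, where 48.9% of all genes were. Below low smoke were 0 of 8 in high smoke, where 49.8% of all genes were. These comparisons share libraries, so the same low smoke values enter both of the latter counts. The members also varied together over the 22 libraries, with Pearson's r of log2 values above 0 in 28 of 28 pairs. The median r was 0.496 (27 of 28 pairs and 0.425 with air replicate 3 left out). The counts are therefore not of 8 independent genes, and they were not tested. Without air replicate 3, 7 of 8 were still below air in low smoke and Icam1 was at 0.032. The members' median without replicates 1, 3 and 7 of high smoke became -0.25 in high smoke against air, beside -0.30 in low smoke, and 0.095 in high against low smoke.

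The libraries differed in how many members were high. In air replicate 3, 8 of 8 members were among the 3 highest of the 22 libraries, and in high smoke replicates 1 and 2, 4 of 8 each. Low smoke replicates 1 and 6 stood at the other end, as did replicate 4 of high smoke, where 0 of 8 members were above their median over all libraries. Air replicate 3 also had the highest summed level of the neutrophil markers (604 normalized counts, against 249 to 578 in the other air rats) and of the acute phase and induced effector genes (10750), and stood at 15856 in immediate early genes, after air replicate 4 (17864) and high smoke replicate 1 (16088). High smoke replicate 1 stood at 536 in neutrophil markers and 9016 in acute phase and induced effector genes, and high smoke replicate 2 at 273 and 8290. Air replicates 6 and 7 stood at 578 and 562 in neutrophil markers, with 0 of 8 members among the 3 highest libraries. The part of these differences in the members' values was not tested.

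**Figure D3:**
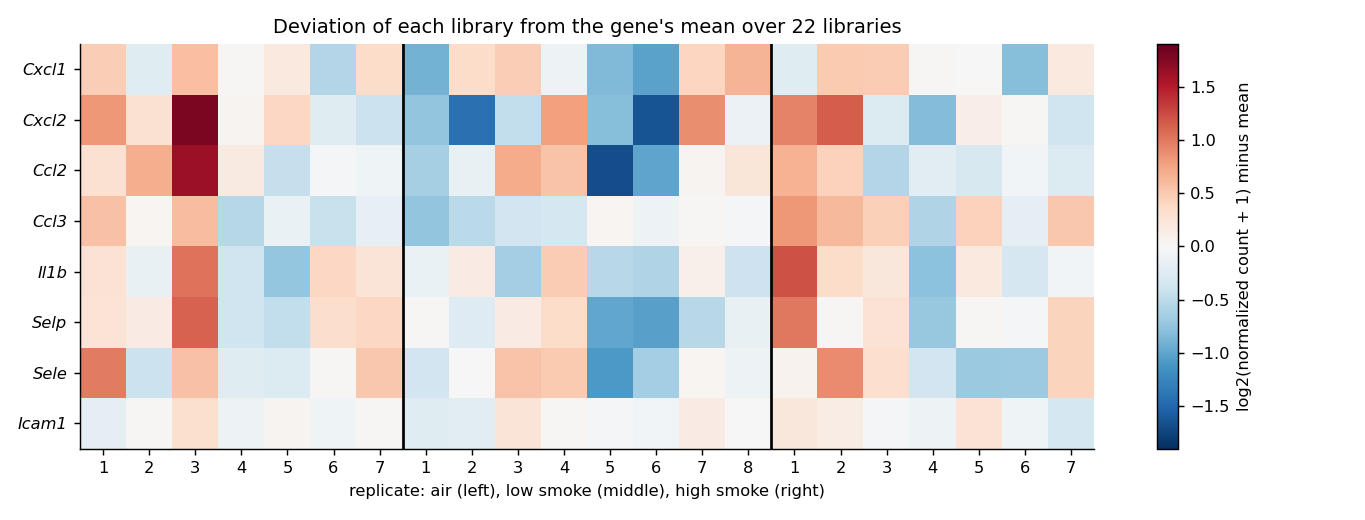
Colour shows log2(normalized count + 1) minus the gene's mean over the 22 libraries for the 8 tested genes (rows) in each library (columns), with black lines between air, low smoke and high smoke. Air replicate 3 is above the mean in all 8 rows, and low smoke replicate 6 is below it in all 8 rows.

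Within groups, the values of 7 tested members spread more than those of most genes tested, and those of Icam1 less. The mean over libraries was 20.1 to 131.9 normalized counts for these 7 and 6205 for Icam1. The comparison with all genes was not matched for level, so it does not separate differences between rats from read counting. The standard deviation of log2 values within groups was 0.80 for Cxcl2, 0.67 for Ccl2, 0.52 to 0.56 for Cxcl1, Il1b, Selp and Sele, and 0.41 for Ccl3, against a median of 0.23 over all genes tested. For Icam1 it was 0.18, and 30.1% of genes had a smaller one. For the other 7 that share was 83.6% to 98%. For these 7 the variance of normalized counts was 1.63 to 15.8 times that of read counting alone, over the 3 groups. The median SE of a member's difference from air was 0.27 in high smoke, against 0.12 over all genes.

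**Figure D4:**
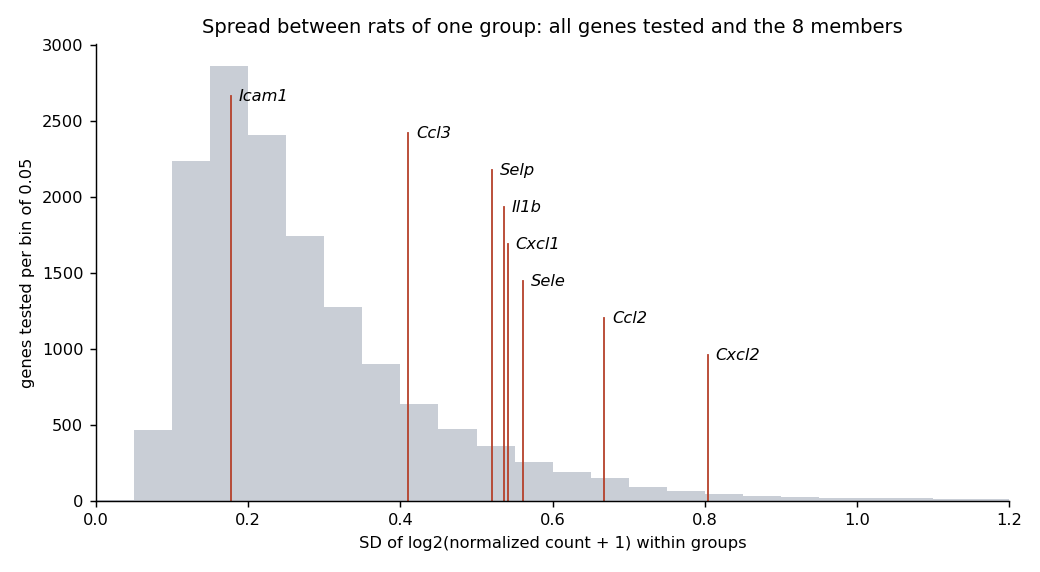
Grey bars give the number of tested genes (vertical axis) by their standard deviation of log2(normalized count + 1) within groups (horizontal axis, bins of 0.05; genes above 1.2 are not drawn), and red lines mark the 8 tested members; line heights have no meaning. Icam1 (0.18) lies left of the median of 0.23 and Cxcl2 (0.80) far to the right.

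The genes with profiles most like a member's over the 22 libraries were found by Pearson's r of log2 values, as a description with no test. For Il1b they were Coro1a (r = 0.83), Rac2 (0.81) and Tnfrsf1b (0.80), which encode a leukocyte actin regulator, a leukocyte GTPase and a receptor of tumour necrosis factor. For Selp they were Idh1 (0.83), Rgs14 (0.82) and Il1b itself (0.80). For Ccl3 they were Lman2 (0.84), Ly6e (0.83) and St14 (0.83). For Ccl2 they were Rxylt1 (0.75), Idh1 (0.74) and Selp (0.72), and for Cxcl2 Trim27 (0.76), Sema6b (0.72) and Plek (0.71). For Sele they were Ppp1r32, Pih1d3 and Tmc5 (0.76 to 0.78), for Cxcl1 Mccc2, Sele and Clpx (0.70 to 0.72) and for Icam1 they included Lsr and Tspan15 (both 0.70). Of the 24 nearest profiles, 10 peaked in air replicate 3 and 7 in high smoke replicate 1.

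Of 14 listed receptors of these ligands 12 were found and tested, while Ccr2, the receptor of Ccl2, and Ackr1 were not found. In high smoke against air 2 of the 12 were lower and 0 higher, beside 7.05% and 9.21% of all genes tested. The same shares of all genes apply to the lists that follow, for the fit of all libraries as deposited. Without high smoke replicates 1, 3 and 7, 124 of all genes were called in high smoke against air. With every library scaled to the same total 2691 were, most of them lower. Il1rap, the co-receptor that interleukin 1 needs to signal, fell by 0.56 on the log2 scale, from 387 ± 47.2 in air to 262 ± 34.6 in high smoke (SD, n = 7 each, limma adjusted p = 0.000716), and stood at 342 ± 40.4 in low smoke (SD, n = 8). Cxcr1, a neutrophil receptor of CXC chemokines, fell by 0.56, from 76.4 ± 17.7 to 52.6 ± 16.1 (SD, n = 7 each, limma adjusted p = 0.0396). Il1rap also fell in high against low smoke, by 0.39 (limma adjusted p = 0.0227), and was the 1 of 12 receptors called there. Without high smoke replicates 1, 3 and 7, Il1rap still passed against air (-0.42, adjusted p = 0.0444) and Cxcr1 did not (-0.27, adjusted p = 0.529). The call of Cxcr1 was also lost without any 1 of air replicates 1, 3, 4, 5 and 6 or high smoke replicates 1, 3 and 7, and that of Il1rap in high against low smoke without any 1 of high smoke replicates 1, 3 and 7. In low smoke 0 of 12 passed, with Ackr2, a scavenger of CC chemokines, at -0.56 (limma adjusted p = 0.771) and Il1rap at -0.18 (limma adjusted p = 0.775).

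Of 24 genes of NF-κB signalling and cytokine processing, 3 rose and 4 fell in high smoke against air. Myd88, the adaptor through which interleukin 1 and Toll-like receptors reach NF-κB, rose 1.54-fold from 254 ± 45.1 to 397 ± 96.7 (SD, n = 7 each, limma adjusted p = 0.00247) and 1.48-fold against low smoke (limma adjusted p = 0.0174). Irak4, the kinase that Myd88 binds, fell by 0.33 (limma adjusted p = 0.0155), Ripk1, a kinase of tumour necrosis factor signalling, fell by 0.36 (limma adjusted p = 0.0177), and Adam17, the protease that sheds tumour necrosis factor, fell by 0.31 (limma adjusted p = 0.0096). The other 3 called were Traf2 and Map3k7, which rose, and Ikbkg, which fell. In high against low smoke Myd88 was the only gene of the 24 called, and in low smoke against air 0 passed, with Tradd at -0.17 and Irak1 at -0.086. With high smoke replicates 1, 3 and 7 left out 0 of the 24 were called in high smoke against air, where 124 of all genes were. Myd88 then stood at 0.38 (limma adjusted p = 0.129). With every library scaled to the same total 1 of the 24 rose and 6 fell, where 2691 of all genes were called, most of them lower. The call of Myd88 in high against low smoke was lost without any 1 of high smoke replicates 1, 3 and 7.

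Among 17 other adhesion molecules of leukocyte entry tested, 0 rose and 1 fell in high smoke against air. Itgal, the integrin chain that binds ICAM-1, fell by 0.40, from 1745 ± 273 to 1320 ± 210 (SD, n = 7 each, limma adjusted p = 0.0263), and stood at -0.23 without high smoke replicates 1, 3 and 7 (adjusted p = 0.440). Its call was also lost without any 1 of air replicates 1, 2 and 6 and high smoke replicates 3 and 7. With every library scaled to the same total 4 of the 17 fell, and more of all genes were called lower as well. The median difference with that scaling was -0.094 for the 17 and -0.078 over all genes. In low smoke Selplg, the ligand of P-selectin on leukocytes, stood at -0.41 (limma adjusted p = 0.724). In high against low smoke Glg1 stood at -0.16 and Itga4 at -0.46 (limma adjusted p = 0.085 and 0.0951), and 0 of 17 passed. With every library scaled to the same total Glg1 passed there (-0.20, adjusted p = 0.0400).

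Of 12 other inflammatory chemokines and cytokines, 0 passed in any comparison. Cxcl3, another Cxcr2 ligand, averaged 1482 ± 389 (SD, n = 7) in the air rats, against 1062 ± 278 (SD, n = 7) with high smoke, a difference of -0.48 in high smoke (limma adjusted p = 0.0774). It passed with every library scaled to the same total (-0.55, adjusted p = 0.0386), and also without any 1 of air replicates 5 and 6 and high smoke replicate 7. Csf1 stood at -0.16 in high smoke, and Cxcl10, an interferon-induced chemokine, at -0.47 in low smoke against air and 0.71 in high against low smoke (limma adjusted p = 0.854 and 0.181). Cxcl1, Cxcl2 and Cxcl3 are related copies, and Cxcl1 and Cxcl2 had whole reads in 22 of 22 libraries.

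Of 15 feedback inhibitors 0 passed. In high smoke Il18bp, which binds interleukin 18, stood at 0.53 (limma adjusted p = 0.0536) and Tnfaip3, which holds back NF-κB, at -0.46 (limma adjusted p = 0.0624). In low smoke Zfp36, which destabilizes cytokine messenger RNA, stood at -0.41 and Dusp1 at -0.57 (limma adjusted p = 0.702 and 0.724). Nfkbia, the inhibitor bound to NF-κB, stood at 0.39 in high against low smoke (limma adjusted p = 0.0866). Among single libraries left out, Il18bp passed without any 1 of air replicate 3, replicates 1 and 8 of low smoke and 2 and 5 of high smoke, Tnfaip3 without air replicate 7 or high smoke replicate 2, and Nfkbia without high smoke replicate 2 or 4, while Tnfaip3 also passed with equal totals (-0.53, adjusted p = 0.0347).

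Of 13 acute phase and induced effector genes 1 rose in high smoke against air. Hp, which encodes haptoglobin, rose 1.86-fold from 285 ± 92.3 to 554 ± 246 (SD, n = 7 each, limma adjusted p = 0.0121), and stood at 0.54 without high smoke replicates 1, 3 and 7 (adjusted p = 0.317). Against low smoke it stood at 0.71 (limma adjusted p = 0.0554), and it passed there without any 1 of air replicates 3 and 4 and high smoke replicates 4, 5 and 6. Cp, which encodes ceruloplasmin, stood at -0.21 there (limma adjusted p = 0.0953) and passed without air replicate 5 (adjusted p = 0.0487) and with equal totals (-0.26, adjusted p = 0.0469). In low smoke against air Ptgs2, the inducible cyclooxygenase, stood at -0.47 and Ier3 at -0.51 (limma adjusted p = 0.702 and 0.769). Of 23 immediate early genes, Jund rose by 0.52 in high smoke against air (limma adjusted p = 0.00394) and Ier5 by 0.33 in high against low smoke (limma adjusted p = 0.0309), and 0 fell in any comparison. With every library scaled to the same total 1 gene rose and 1 fell in both of these lists in high smoke against air, and Ier5 did not pass (adjusted p = 0.0516). Without high smoke replicates 1, 3 and 7 neither passed (adjusted p = 0.158 and 0.710), and the call of Ier5 was also lost without any 1 of replicates 1, 2 and 3 of low smoke and 1, 3 and 7 of high smoke. In low smoke Nr4a1 stood at -0.53 and Junb at -0.51 (limma adjusted p = 0.495 and 0.644), and the median of the 23 was -0.24, beside 0.0031 for all genes.

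Markers of the cells that make or answer these signals were read in the same libraries. Of 11 neutrophil markers found 6 were tested and 0 passed in any comparison. Their summed level was 249 to 604 in air, 184 to 523 in low smoke and 246 to 536 in high smoke, with Csf3r the highest, and S100a8, Fpr1, Camp, Ngp and Retnlg were under a mean of 10. Of 14 monocyte and macrophage markers 3 rose in high smoke against air, the complement genes C1qa, C1qb and C1qc, and 1 fell, Cd68. Their summed levels were 61341 to 77321 in air, 56691 to 78078 in low smoke and 66101 to 96782 in high smoke. Most of each sum was Lyz2 (median 64223 in air, beside a summed median of 70993), so the sums mainly follow that 1 gene. Of 12 endothelial markers 1 rose and 1 fell in high smoke, with sums of 44732 to 55198 in air, 49056 to 62320 in low smoke and 45429 to 55473 in high smoke, led by Tek. Of 4 platelet markers tested, of 10 found, 0 passed, and their sums were 150.3 to 226.7 in air, 111.7 to 220.4 in low smoke and 116.3 to 217.5 in high smoke, led by Itga2b. In high smoke against air 5 of 11 lung epithelial markers rose, as did 2 of 7 B cell and 2 of 6 red cell markers; Sftpc and Hbb had the highest mean of the epithelial and red cell lists. The summed epithelial level was 164004 to 213241 in air, 163406 to 240286 in low smoke and 214621 to 284459 in high smoke, without overlap between air and high smoke. Without high smoke replicates 1, 3 and 7 the epithelial count was 1 and the other marker counts were 0. With equal totals 2 macrophage, 1 endothelial, 1 B cell, 5 epithelial and 2 red cell markers rose in high smoke against air. In the same setting 1 macrophage, 1 endothelial and 1 epithelial marker fell. In that comparison 0 of 8 mast cell, 0 of 9 T and NK cell and 0 of 9 cardiac muscle markers passed, with Kit, Cd4 and Actc1 the highest. In high against low smoke 3 macrophage, 1 endothelial, 1 epithelial and 2 red cell markers rose. Kit, of the mast cell list, fell there, while the other 7 tested genes of that list were not called. In low smoke against air 0 markers of any list passed. The part of these cell types in the members' values was not tested.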

How the data were processed

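Lung RNA of 22 rats was analysed: 7 air, 8 low smoke and 7 high smoke libraries, grouped by the treatment given in the labels. The authors aligned reads with STAR 2.7.3a to build rn6 and used Partek and DESeq2, per the submitters' processing notes. The deposited values are a signal, reads of each gene over the size factor of its library. High smoke replicate 8, marked in its label as removed for quality, was not analysed here. Within each library 80.7% to 82.8% of values under 200 reads were within 0.02 of a whole number of reads, so reads were not recovered and no count model was used. Values were transformed to log2(value + 1), which understates changes of genes with low values, and genes with a mean of at least 10 were fitted with limma 3.58.1 under R 4.3.3 (mean trend, no robust shrinkage), with two-sided tests and Benjamini-Hochberg adjustment over 14414 genes. The fit was tested on simulated data. Promoters came from RefSeq (GRCr8). Named were all 10 members, in each pathway list up to 4 genes past the threshold by smallest p or else the 2 with the smallest p, the 3 tested genes most like each member, and the highest marker of each cell type. Traf2, Map3k7, Ikbkg, C1qa, C1qb, C1qc, Cd68 and the low neutrophil markers were named after their values were seen. Some genes this rule names are not reported here. Replicates are separate rats. Members and lists were chosen with earlier results of these data known. Alternatives were pseudocounts of 0.5 and 5, other level filters, scaling to the total or upper quartile, array weights, robust shrinkage, fits of 2 groups, the exact rank-sum test, and left-out libraries.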

Additional observations from a re-analysis of the deposited data

Results flagged for a closer look

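In each of the 30 pairs of a member and a group, the highest and lowest library were checked for a gap to the nearest other library that is large for the range of the group (Dixon's 95% limit, on normalized counts). That limit marks about 1 in 20 groups by chance when values are normally distributed, which low and skewed counts need not be. Here 6 pairs were marked, and log2 values were not checked in this way. Air replicate 3 accounted for 3 of them, with Cxcl2 at 70.2 (next 35.4), Ccl2 at 57.3 (next 29.5) and Selp at 83.2 (next 49.4). High smoke replicate 1 accounted for 2, with Il1b at 140.8 (next 77.3) and Tnf at 25.9 (next 9.70). The other was Il6 in low smoke replicate 4, at 0.981, which is 1 read in a group otherwise at 0, where any read would be marked.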

How the results depend on the processing

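No paired analysis was possible because the labels tie no rat of one group to a rat of another. Of 801 values of the 24 member comparisons under 34 alternatives, 767 kept direction and side of the threshold, 32 turned sign and 2, both of Ccl3, passed it. In high smoke against air Il1b turned to -0.058 with equal totals, -0.0031 with equal upper quartiles, -0.0088 with array weights and -0.24 without high smoke replicates 1, 3 and 7, and Icam1 to -0.071 and -0.016 with equal totals and upper quartiles. Icam1 turned to 0.032 in low smoke against air with array weights and to -0.019 in high against low smoke with equal totals, and Sele there to -0.073 without high smoke replicates 1, 3 and 7. With 1 library left out, high smoke against air ran from -0.21 to 0.038 for Cxcl1, -0.16 to 0.17 for Il1b, -0.21 to 0.086 for Selp and -0.039 to 0.063 for Icam1. Icam1 ran from -0.054 to 0.032 in low smoke against air and -0.022 to 0.080 in high against low smoke, where Ccl2 ran from -0.0023 to 0.34 and Sele from -0.015 to 0.25. The members called stayed at 0 in both comparisons with air, and were 0 to 1 in high against low smoke. Genes called in high smoke against air numbered 1453 to 2863 with 1 library left out, of which high smoke replicates 1 (1453), 3 (1461) and 7 (1550) moved the count by over 1.5 times. They numbered 1351 in a fit of 2 groups, 746 by rank-sum and 124 without high smoke replicates 1, 3 and 7. In low smoke against air they were 0 to 2 with 1 library left out (2 without air replicate 5) and 1 without those 3. In high against low smoke they were 29 to 1651 with 1 left out, 183 by rank-sum and 0 without those 3 by limma (939 at an unadjusted p under 0.05). The libraries that moved this count by over 1.5 times were low smoke replicates 1 to 4 (316, 296, 550 and 399) and high smoke replicates 1 (35), 3 (51), 4 (1651), 6 (1575) and 7 (29). The cause was not tested. Of 1289 values of 38 comparisons of other named genes, 49 lost and 24 gained a call and 0 turned sign. By the exact rank-sum test the calls of Itgal, Cxcr1, Myd88, Irak4, Ripk1 and Hp in high smoke against air, and of Myd88 and Ier5 in high against low smoke, were lost (adjusted p from 0.0644 to 0.2024). Depth limits Il6, at 0 to 3 reads per library, and Tnf, at 3.54 to 21.5 read equivalents.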
